A study of Homo sapiens with 10 samples.

Results

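To understand how genes of the inflammasome and gasdermin pathway were expressed after loss of DNMT1, RNA levels of 10 genes were examined in HCT116 and DNMT1 KO cells. The genes were chosen by name, as genes of pyroptosis, several of them known as methylated and silent in colorectal cancer, and each was found by its Ensembl identifier among the 58884 genes of the count tables. They comprised the sensors NLRP1, NLRP3 and AIM2, the adaptor PYCARD, the caspases CASP1 and CASP4, the cytokine IL18, and the gasdermins GSDMB, GSDMD and GSDME. HCT116 is a human colorectal carcinoma cell line with wild-type DNMT1, the methyltransferase that copies CpG methylation after replication. DNMT1 KO cells derive from HCT116 and, per the study, retain a low amount of a truncated protein, so they are not a complete loss of the enzyme. The labels give no treatment for either line and do not say whether DNMT1 KO is a clone. Per the study, the libraries of each line came from independent cultures.

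Inflammasomes are cytosolic protein complexes that assemble when a sensor detects microbial products or cell damage. The sensor recruits caspase-1, often through the adaptor ASC encoded by PYCARD, and the active caspase matures interleukin-18 and interleukin-1 beta and cuts gasdermin D. The freed amino-terminal part of a gasdermin forms pores in the plasma membrane, and cells die by lytic pyroptosis. In the intestine, interleukin-18 is made largely by epithelial cells.

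Poly(A) RNA was sequenced from 6 HCT116 libraries (replicates 1, 2, 3, 7, 8 and 9) and 4 DNMT1 KO libraries (replicates 1 to 4), with 35418732 to 85991812 counts in HCT116 and 26700853 to 55732013 counts in DNMT1 KO. By the labels, batch 1 held replicate 1 of each line, batch 2 replicates 2 and 3 of each line, batch 3 DNMT1 KO replicate 4, and batch 4 HCT116 replicates 7, 8 and 9. DNMT1 itself lay at 14.1 to 22.3 CPM (counts scaled to library depth) in DNMT1 KO, below the 89.8 to 263 CPM of HCT116. The summed level of 10 colon epithelium markers was 2520 to 6130 CPM in HCT116 and 645 to 1430 CPM in DNMT1 KO. EPCAM, CDH1, KRT8, KRT18 and KRT19 had lower means in DNMT1 KO, and KRT20 was at 0 in every library. The fall was not shared by CDX2 (means of 30.7 and 36.0 CPM). Nor was it shared by VIL1 (0.00928 and 0.609 CPM), LGALS4 (0.0773 and 0.133 CPM) or CDX1 (0.00891 and 0.0344 CPM), each under 1 CPM. Of 12 leukocyte and myeloid markers 11 had a mean under 1 CPM, their sum ran from 0.947 to 9.36 CPM in HCT116 and from 3.58 to 7.55 CPM in DNMT1 KO, and PTPRC had 2 counts in each line. The sum of 8 fibroblast markers was 6.5 to 19.8 CPM in HCT116 and 16.7 to 21.6 CPM in DNMT1 KO, with means of 12.5 and 6.72 CPM for COL1A1, 0.0231 and 4.83 CPM for COL3A1 and 0.301 and 4.76 CPM for PDGFRB. Whether these marker differences had a part in the results on the pathway was not tested.

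The members moved in different directions. In DNMT1 KO cells IL18 fell 28.1-fold, CASP4 fell 24.8-fold and GSDME rose 2.09-fold, and NLRP1 and GSDMB did not pass the test. These 5 genes passed the filter on low counts. The other 5 did not enter the test: NLRP3, PYCARD and CASP1 had few counts, and AIM2 and GSDMD were at 0 in every library. A gene was called at a Benjamini-Hochberg adjusted p under 0.05 in edgeR's quasi-likelihood test with a log2 fold change above 1 or below -1. Of the 5 tested members, 1 was called higher and 2 lower, where 7.42% of all 19279 genes tested were called higher and 6.49% lower. Their median log2 fold change was -1.21, and that of all genes tested was -0.07. With 5 genes these shares describe the members and were not tested against the background.

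**Figure D1:**
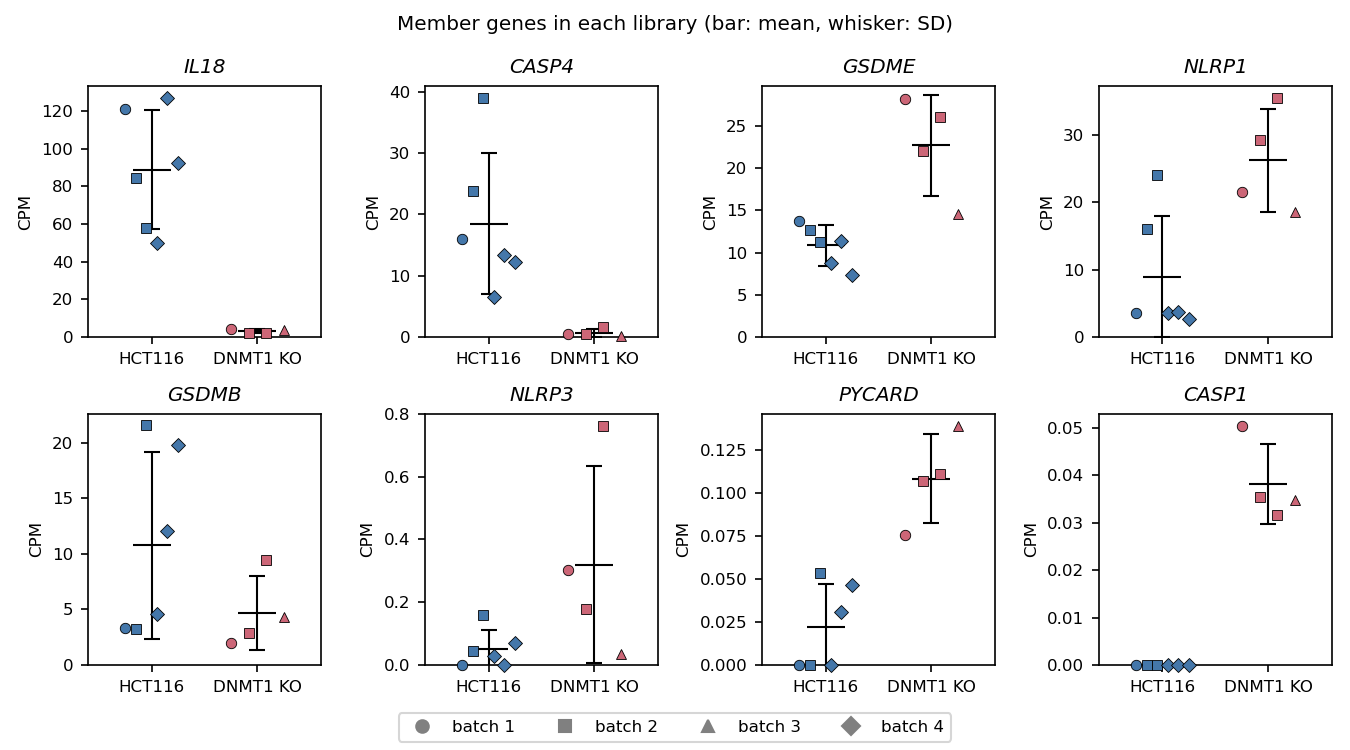
Levels of the 8 members with any counts, in CPM on a linear axis from 0, for each of 6 HCT116 and 4 DNMT1 KO libraries. Symbols mark the batch, the wide bar is the mean and the whisker the SD. The DNMT1 KO libraries lie below every HCT116 library for IL18 and CASP4 and above every HCT116 library for GSDME. They also lie above for PYCARD (8 counts in HCT116, 20 in DNMT1 KO) and CASP1 (0 and 7 counts). Both of these genes had few counts and did not enter the test, so the share of tested genes without overlap does not cover them.

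The cytokine IL18 (ENSG00000150782, chromosome 11, 112143253 to 112164096, minus strand) was the most abundant member in HCT116 cells. Its level was 121, 84.3, 57.9, 50.1, 127 and 92.2 CPM in HCT116 replicates 1, 2, 3, 7, 8 and 9, and 4.47, 2.04, 2.36 and 3.82 CPM in DNMT1 KO replicates 1 to 4. The lowest HCT116 library thus lay far above the highest DNMT1 KO library, and the means were 88.9 ± 31.7 CPM (SD, n = 6) and 3.18 ± 1.16 CPM (SD, n = 4). IL18 fell 28.1-fold in DNMT1 KO cells (log2 fold change -4.81, SE 0.39, edgeR adjusted p = 7.68e-07). The within-batch log2 ratios were -4.76 in batch 1 and -5.01 in batch 2. HCT116 batch 4 differed from HCT116 batches 1 and 2 by 0.02 on the log2 scale (SE 0.38, edgeR adjusted p = 0.981). In bulk RNA, fewer cells that express a gene and less RNA per cell cannot be told apart.

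Among the caspases, CASP4, which senses cytosolic lipopolysaccharide directly and cuts gasdermin D and interleukin-18, also fell. CASP4 (ENSG00000196954, chromosome 11, 104942866 to 104969366, minus strand) was measured at 16.0, 23.8, 39.0, 6.59, 13.4 and 12.3 CPM in HCT116 replicates 1, 2, 3, 7, 8 and 9. In DNMT1 KO replicates 1 to 4 it was measured at 0.455, 0.533, 1.68 and 0.209 CPM. The groups did not overlap, and replicate 3 was the highest library of both lines. The means were 18.5 ± 11.5 CPM (SD, n = 6) and 0.720 ± 0.656 CPM (SD, n = 4), a 24.8-fold fall (log2 fold change -4.63, SE 0.64, edgeR adjusted p = 0.000114). Without DNMT1 KO replicate 3 the log2 fold change was -5.48 (edgeR adjusted p = 6.57e-05). The within-batch log2 ratios were -5.13 in batch 1 and -4.82 in batch 2. HCT116 batch 4 lay below HCT116 batches 1 and 2 by a log2 fold change of -1.31 (SE 0.39, edgeR adjusted p = 0.0537), which did not pass the test and was smaller in size than the difference between the lines.

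CASP1 encodes caspase-1, the inflammatory caspase at the centre of canonical inflammasomes. CASP1 (ENSG00000137752, chromosome 11, 105025397 to 105035250, minus strand) had no count in any HCT116 library and 2, 2, 2 and 1 counts in DNMT1 KO replicates 1 to 4. It lay in the same cluster as CASP4, with 56031 bases between the gene spans. Taken as exact, the 7 counts give a level 4.18-fold higher than a floor of 3 counts over the HCT116 group. The counting error of the 7 counts is left out of this ratio, so it is not a lower limit. In 9 of the 10 libraries 64.4 to 70.0% of the genes with 1 to 10 counts had an even count, against 39.9% in DNMT1 KO replicate 4. Whether 2 counts in those libraries are mates of 1 fragment was not tested. Floors and intervals cover no more than counting error, a floor only that of the group without counts, and both treat counts as independent. At this depth both lines were near the limit of detection of CASP1.

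The adaptor was as scarce. PYCARD (ENSG00000103490, chromosome 16, 31201486 to 31203450, minus strand) had 0, 0, 2, 0, 2 and 4 counts in HCT116 replicates 1, 2, 3, 7, 8 and 9 and 3, 6, 7 and 4 counts in DNMT1 KO replicates 1 to 4. Scaled to depth, every DNMT1 KO library (0.0758 to 0.139 CPM) lay above every HCT116 library (0 to 0.0535 CPM). The ratio of the summed counts per effective total was 4.48 (exact 95% counting interval 1.89 to 11.8). PYCARD did not pass the filter, and without a filter it was not called (edgeR adjusted p = 0.205). Its antisense partner PYCARD-AS1 had 2 counts in each line, and the counting named no strand option, so reads from the pair cannot be told apart where they overlap.

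Of the sensors, NLRP1 alone had more than 100 counts in every library. NLRP1 is held inactive by DPP8 and DPP9, and its activation is linked to cleavage of its amino terminus by proteases. NLRP1 (ENSG00000091592, chromosome 17, 5499415 to 5619424, minus strand) was measured at 3.53, 16.1, 24.0, 3.59, 3.75 and 2.77 CPM in HCT116 replicates 1, 2, 3, 7, 8 and 9, and at 21.6, 29.2, 35.5 and 18.6 CPM in DNMT1 KO replicates 1 to 4. The groups overlapped, because HCT116 replicate 3 lay above DNMT1 KO replicates 1 and 4. The means were 8.97 ± 8.97 CPM (SD, n = 6) and 26.2 ± 7.61 CPM (SD, n = 4), with a log2 fold change of 1.55 (SE 0.57, edgeR adjusted p = 0.0807) that did not pass the threshold.

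The spread of NLRP1 followed the batches of HCT116. In batch 1 the log2 ratio was 2.61, and in batch 2, which holds the 2 HCT116 libraries with high NLRP1, it was 0.69. Between HCT116 batch 4 and HCT116 batches 1 and 2, NLRP1 was called lower (log2 fold change -2.14, SE 0.53, edgeR adjusted p = 0.0247), alone of the 5 tested members, where 8.03% of 18656 genes tested were called in either direction. No member was called in that comparison when HCT116 replicate 2, 7, 8 or 9 was left out. Without HCT116 replicate 3 the comparison of the lines passed the test (log2 fold change 2.17, edgeR adjusted p = 0.00516). It also passed with batch as a term (1.29, edgeR adjusted p = 0.0237), without a filter on low counts (1.53, edgeR adjusted p = 0.0161) and in DESeq2 (1.54, adjusted p = 0.0351), and it did not pass in the 16 other alternatives. Each alternative gave a log2 fold change above 0, from 0.69 to 2.17.

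NLRP3, the sensor of potassium efflux and many other danger signals, was near the limit of detection. NLRP3 (ENSG00000162711, chromosome 1, 247416156 to 247449108, plus strand) had 0, 2, 6, 2, 0 and 6 counts in HCT116 replicates 1, 2, 3, 7, 8 and 9 and 12, 10, 48 and 1 counts in DNMT1 KO replicates 1 to 4. The groups overlapped at DNMT1 KO replicate 4, and DNMT1 KO replicate 3 held 48 of the 71 counts of its line. The ratio of the summed counts per effective total was 7.96 (exact 95% counting interval 4.58 to 14.7) and fell to 3.88 without DNMT1 KO replicate 3. AIM2 (ENSG00000163568, chromosome 1, 159061599 to 159187843, minus strand), which binds cytosolic DNA, had 0 counts in all 10 libraries, which allows a level of up to 0.00892 CPM in HCT116 and 0.0160 CPM in DNMT1 KO.

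Of the gasdermins that could be measured, GSDME, whose product is cut by granzyme B, rose, and GSDMB did not pass the test. GSDME (ENSG00000105928, chromosome 7, 24698355 to 24757940, minus strand) was measured at 13.7, 12.7, 11.3, 8.75, 11.4 and 7.35 CPM in HCT116 replicates 1, 2, 3, 7, 8 and 9 and at 28.1, 22.0, 26.0 and 14.6 CPM in DNMT1 KO replicates 1 to 4. The lowest DNMT1 KO library, replicate 4, lay just above the highest HCT116 library. The means were 10.9 ± 2.40 CPM (SD, n = 6) and 22.7 ± 5.97 CPM (SD, n = 4), a log2 fold change of 1.06 (SE 0.26, edgeR adjusted p = 0.0101). The within-batch log2 ratios were 1.03 in batch 1 and 1.00 in batch 2, so the size was alike within each batch that holds both lines. Of the 5 tested members, GSDME alone lay wholly above HCT116 in DNMT1 KO and IL18 and CASP4 lay wholly below, where 8.4% of all genes tested lay above without overlap and 6.79% below.

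The call on GSDME sat at the edge of the fold limit. It was lost with the replicate number as a block on replicates 1 to 3 (log2 fold change 1.01, edgeR adjusted p = 0.0509), without HCT116 replicate 9 (log2 fold change 0.97, edgeR adjusted p = 0.0197) and without DNMT1 KO replicate 1 (0.95, edgeR adjusted p = 0.0496). Batch 2 alone gave 1.00 (edgeR adjusted p = 0.135), and the log2 fold change ranged from 0.95 to 1.27 over the 20 alternatives.

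GSDMB (ENSG00000073605, chromosome 17, 39904595 to 39919854, minus strand), whose product is cut by granzyme A, varied widely within each line. Its level was 3.28, 3.23, 21.6, 4.54, 12.1 and 19.8 CPM in HCT116 replicates 1, 2, 3, 7, 8 and 9 and 2.00, 2.84, 9.44 and 4.31 CPM in DNMT1 KO replicates 1 to 4. The groups overlapped, and replicate 3 was the highest library of both lines, as for CASP4 and NLRP1. It had a log2 fold change of -1.21 with an SE of 0.61 (edgeR adjusted p = 0.222), and the difference between the lines was not larger than the spread between libraries. Without DNMT1 KO replicate 3 it was -1.80 (edgeR adjusted p = 0.0976).

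The make-up of gasdermin RNA was therefore compared within each library, as the GSDME percentage of the summed RPKM (CPM divided by exonic length in kilobases) of GSDMB, GSDMD and GSDME. This share was 74.1, 72.8, 26.4, 56.8, 39.0 and 20.2% in HCT116 replicates 1, 2, 3, 7, 8 and 9 and 90.6, 84.0, 65.2 and 69.7% in DNMT1 KO replicates 1 to 4. HCT116 replicates 1 and 2 lay within the range of DNMT1 KO. The mean share was 29.2 percentage points higher in DNMT1 KO (48.2 ± 23.2%, SD, n = 6, against 77.4 ± 11.9%, SD, n = 4). The difference did not pass a two-sided exact permutation test over 210 splits (p = 0.0571, smallest possible p = 0.00952), and in batches 1 and 2 alone the difference was 22.2 points (exact permutation p = 0.3, smallest possible p = 0.1). GSDMD is listed at 0 in every library, so the share sets GSDME against GSDMB. Reads across splice junctions are missed by the alignment, and the size of the share is not corrected for this.

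The length-scaled level sets genes side by side, but it does not correct for reads across splice junctions, which the alignment misses. The order of genes is therefore approximate. On this level IL18 led in HCT116 at 34.1 ± 12.2 RPKM (SD, n = 6). CASP4 (2.78 ± 1.72 RPKM), GSDMB (1.82 ± 1.42 RPKM), GSDME (1.25 ± 0.277 RPKM) and NLRP1 (0.768 ± 0.768 RPKM) followed, with each neighbouring pair of these 4 within 1 SD of its more variable gene. In DNMT1 KO the order was GSDME (2.62 ± 0.689 RPKM), NLRP1 (2.24 ± 0.652 RPKM), IL18 (1.22 ± 0.445 RPKM) and GSDMB (0.787 ± 0.565 RPKM), then CASP4 at 0.108 ± 0.0985 RPKM (SD, n = 4 each). GSDME and NLRP1, and IL18 and GSDMB, likewise lay within 1 SD of each other. NLRP3, PYCARD and CASP1 had means from 0 to 0.0671 RPKM in either line.

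**Figure D2:**
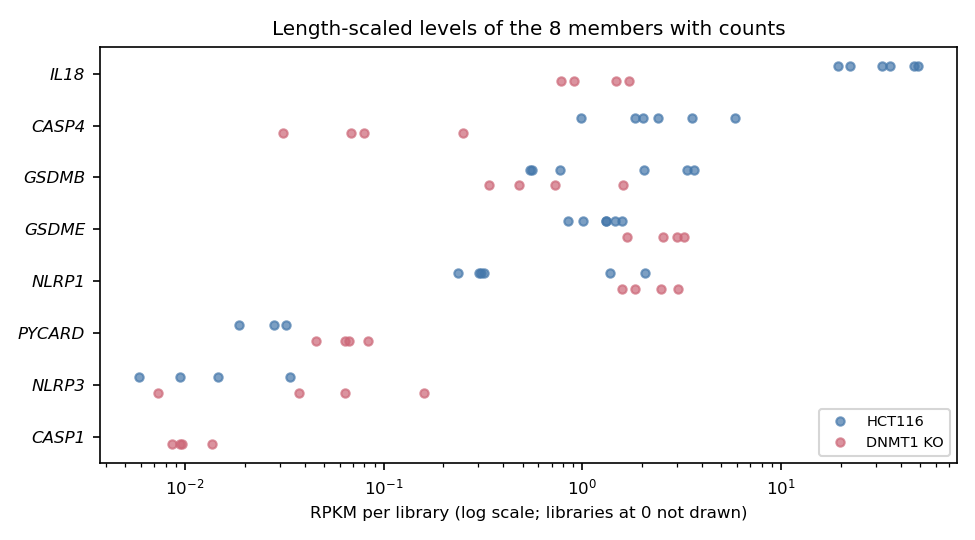
Length-scaled level (RPKM, log axis) of the 8 members with counts, 1 point per library, with libraries at 0 not drawn. IL18 lies above every other member in each HCT116 library, and in DNMT1 KO GSDME and NLRP1 lie highest on average, at 2.62 and 2.24 RPKM, with CASP4 at 0.108 RPKM.

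**Figure D3:**
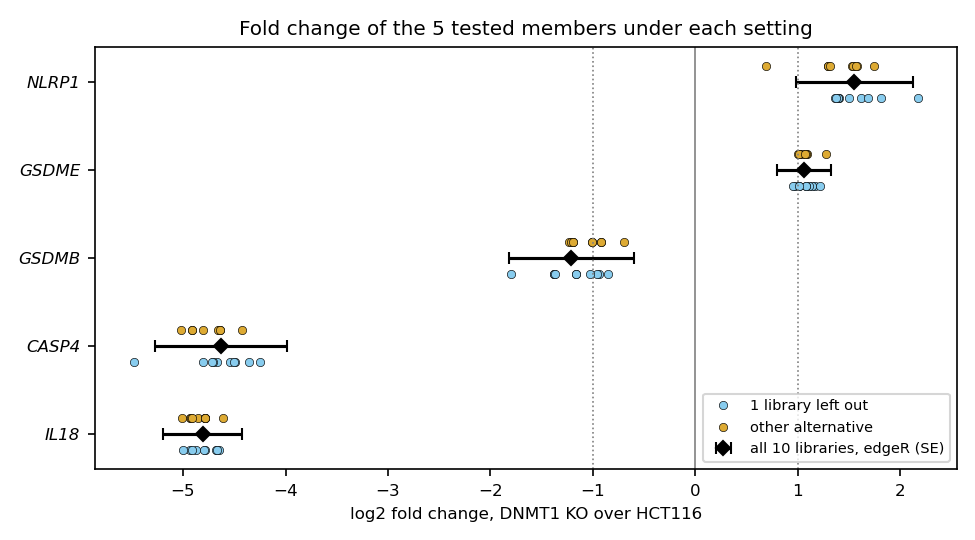
Log2 fold change of DNMT1 KO over HCT116 for the 5 tested members. Black diamonds show the test on all 10 libraries with its SE, blue points the fits with 1 library left out, yellow points the other alternatives, and dotted lines the fold limits. IL18 stays at or below -4.61 and CASP4 at or below -4.25, GSDME lies around 1, and NLRP1 and GSDMB spread more widely without changing sign.

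DNMT1 maintains methylation at CpG dinucleotides, so the sequence just upstream of the members is shown for the caspase that fell and the gasdermin that rose, from 250 bases before to 50 bases after the RefSeq start (GRCh38.p14), 5′ to 3′ on the gene's strand, with each CpG in capitals. RefSeq windows were matched for 5 members, GSDME, PYCARD, CASP4, AIM2 and NLRP3. No window was matched for IL18, the member that fell most, or for NLRP1, GSDMB, CASP1 and GSDMD. Where a gene had several windows listed, the first was used. The GSDME window is chr7:24757415-24757714, minus strand, and the CASP4 window is chr11:104968525-104968824, minus strand.
GSDME: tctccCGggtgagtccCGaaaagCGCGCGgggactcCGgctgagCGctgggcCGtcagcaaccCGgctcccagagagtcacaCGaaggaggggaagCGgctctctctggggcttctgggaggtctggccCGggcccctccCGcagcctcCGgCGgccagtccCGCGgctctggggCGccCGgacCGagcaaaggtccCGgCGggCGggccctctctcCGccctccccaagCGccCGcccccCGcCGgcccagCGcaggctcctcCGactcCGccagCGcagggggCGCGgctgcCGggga
CASP4: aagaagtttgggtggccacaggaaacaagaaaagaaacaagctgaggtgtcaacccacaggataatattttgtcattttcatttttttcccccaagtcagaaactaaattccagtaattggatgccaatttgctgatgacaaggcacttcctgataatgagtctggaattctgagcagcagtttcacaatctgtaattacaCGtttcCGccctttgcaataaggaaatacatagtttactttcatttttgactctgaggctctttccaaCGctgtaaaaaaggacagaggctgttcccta
The GSDME window held 35 CpG at 77.0% GC, and 14.0% of 27305 promoter windows held at least as many. The CASP4 window held 3 CpG at 39.7% GC, and 81.0% of windows held at least as many. PYCARD held 23 CpG, NLRP3 5 and AIM2 2, against a median of 14 over all windows. The counts describe these windows, and methylation was not measured in these libraries.

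The other genes of the pathway were described from a list of 53. Of the 29 that passed the filter, 2 were called higher (P2RX7 and GZMB) and 0 lower by edgeR with the same limits, where 7.42% of all genes tested were called higher and 6.49% lower. An unadjusted p under 0.05 was found for 7 of the 29 (24.1%), against 27.6% of all genes tested. The list's median log2 fold change was -0.22, against -0.07, and 8 of the 29 (27.6%) lay above 0, against 45.6% of all genes tested. P2RX7, the ATP-gated channel upstream of NLRP3, ran from 0.519 to 1.20 CPM in HCT116 and from 2.19 to 6.43 CPM in DNMT1 KO (log2 fold change 2.47, SE 0.38, edgeR adjusted p = 0.000288). The lines did not overlap for P2RX7, and it was called in all 20 alternatives.

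GZMB encodes granzyme B, a protease of cytotoxic lymphocytes that cuts GSDME. It had 2 counts over all HCT116 libraries, both in replicate 9, and 21, 51, 31 and 23 counts in DNMT1 KO replicates 1 to 4. The ratio of the summed counts per effective total was 113 (exact 95% counting interval 30.6 to 943), and GZMB passed the filter through the DNMT1 KO libraries alone, so its call adds nothing to these counts. The level in DNMT1 KO stayed at 0.682 ± 0.203 CPM (SD, n = 4). GZMA was at 0 in every library. Of the leukocyte markers, PTPRC had 2 counts in each line.

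By role, 1 of the 6 tested sensors and sensor helpers was called (P2RX7), and none of the 4 caspases, the 2 cofactors of caspase-4, the 6 cytokines, receptors and antagonists, the 4 inhibitors, the 5 genes of membrane rupture, repair and release or the gasdermin PJVK. Of the cofactors of caspase-4, GBP2 had a log2 fold change of -1.32 (SE 0.92, edgeR adjusted p = 0.39). GBP2 was called lower in 3 alternatives. These were batch as a term (-2.0, edgeR adjusted p = 0.0245), that term on batches 1 and 2, and the replicate block. GBP2 was also called lower in HCT116 batch 4 against HCT116 batches 1 and 2 (-3.59, SE 0.71, edgeR adjusted p = 0.0105). Among the cytokines, receptors and antagonists the lowest log2 fold change was that of IL1RN, the interleukin-1 receptor antagonist. It was -2.17 (SE 0.77, edgeR adjusted p = 0.0729). IL1RN was called lower with batch as a term (-2.51, edgeR adjusted p = 0.0495) and in DESeq2 (-2.21, adjusted p = 0.0296), and in none of the 12 other alternatives that tested it. Of the inhibitors, SERPINB1, an inhibitor of inflammatory caspases, had -1.24 (SE 0.46, edgeR adjusted p = 0.0839). SERPINB1 was called lower in 8 of 20 alternatives. Among these were batch as a term (-1.76, edgeR adjusted p = 0.00065), that term on batches 1 and 2 (-1.76, edgeR adjusted p = 0.00119) and batch 2 alone (-1.87, edgeR adjusted p = 0.0138). The replicate block gave -1.76 (edgeR adjusted p = 0.00387). SERPINB1 was also called lower in HCT116 batch 4 (mean of 61.0 CPM) against HCT116 batches 1 and 2 (215 CPM, log2 fold change -1.84, SE 0.35, edgeR adjusted p = 0.0089). Of the untested genes, IFI16, a nuclear DNA sensor, had 26 counts in HCT116 and 4, 29, 179 and 1 counts in DNMT1 KO replicates 1 to 4. The lines overlapped for IFI16. Its ratio of summed counts per effective total was 14.7 (exact 95% counting interval 9.75 to 23.0) and 3.53 without DNMT1 KO replicate 3.

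**Figure D4:**
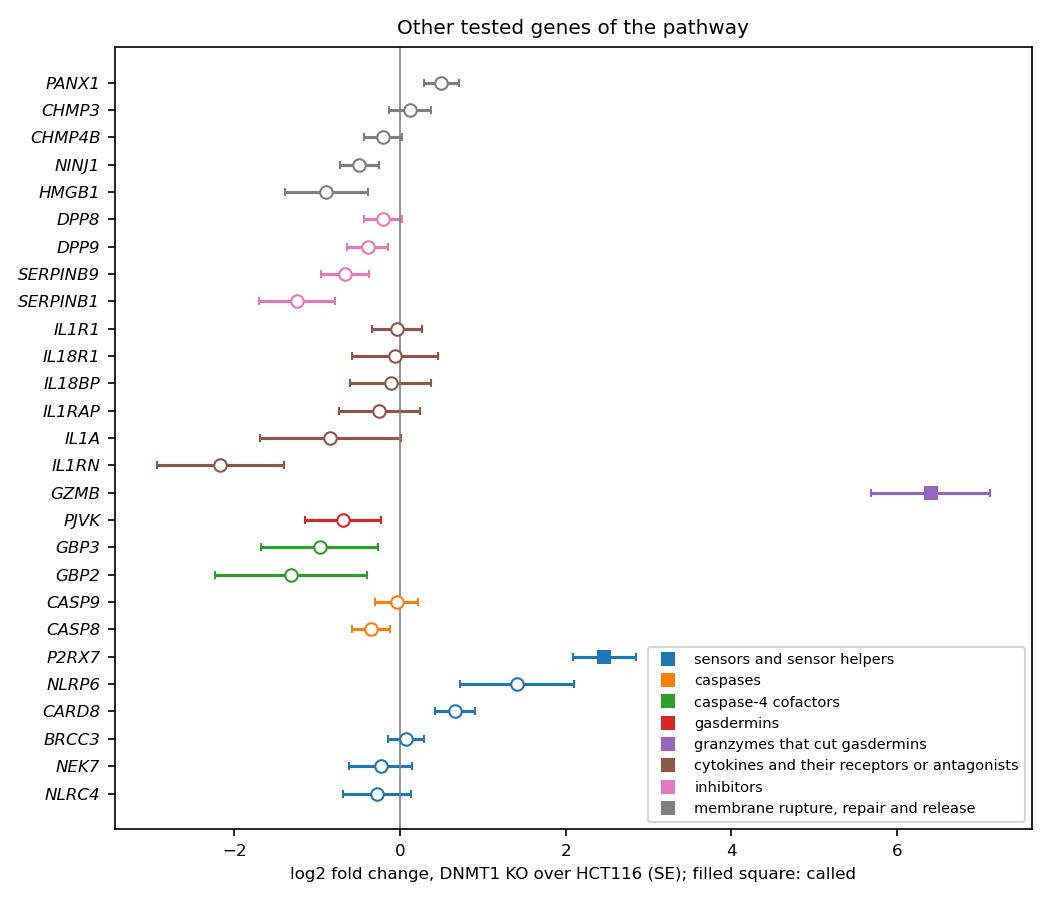
Log2 fold change of DNMT1 KO over HCT116 with its SE for 27 of the 29 tested genes of the list other than the members, coloured by role. Filled squares mark the called genes P2RX7 and GZMB, and open circles the others, from -2.17 for IL1RN to 1.41 for NLRP6.

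Genes near the members were then examined. Within 100 kb of the members' spans lay 73 genes with a symbol, of which 29 were tested. None was called higher and 3 were called lower, where 7.42% and 6.49% of all genes tested were called, namely PRSS8 and TRIM72 beside PYCARD, and the member CASP4 beside CASP1. PRSS8, a membrane-anchored serine protease, fell by 2.04 on the log2 scale (SE 0.44, edgeR adjusted p = 0.00441), and TRIM72, a membrane repair protein, fell by 2.47 (SE 0.29, edgeR adjusted p = 2.33e-05). None of the 8 tested genes beside IL18 and neither of the 2 beside GSDME was called. Of these 2, OSBPL3 had a log2 fold change of -0.97 (SE 0.27, edgeR adjusted p = 0.0246), which passed the adjusted p and not the fold limit. PALS2 had 0.19 (SE 0.28, edgeR adjusted p = 0.721).

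As a description over the 10 libraries, the protein-coding genes whose log2(CPM + 0.5) was most like IL18 among 12133 genes were DDIT4L (Pearson r = 0.9904) and SLC17A5 (0.9877). Those most like CASP4 were MDGA1 (0.9938) and PPARG (0.9869), and those most like GSDME were CYP2U1 (0.9728) and C17orf113 (0.97). These coefficients carry the difference between the lines, since all libraries of both were used together.

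GSDMD, which encodes the gasdermin cut by the inflammatory caspases, could not be measured. GSDMD (ENSG00000104518, chromosome 8, 143553207 to 143563062, plus strand) is listed at 0 in all 10 libraries. It was the first of a run of 14 consecutive protein-coding genes over 263 kb, among them EEF1D and SCRIB, of which 11 were at 0 and none had more than 2 counts over all libraries. The coding genes on either side, ZC3H3 and PUF60, had 7349 and 271 counts. All 4644 exonic windows of 50 bases of GSDMD also occur on an alternate contig of hg38.

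Across the 63 members and other genes of the list, 5 had more than 50% of their windows on other contigs (GSDMD, NAIP, NLRP2, NLRP7 and NLRP10), and all 5 were at 0. Among the other genes the highest share was 5.1%, and 5 were at 0, AIM2 among them, with 0.0% of its windows on other contigs. Reads of low mapping quality were removed by the authors, and whether their index held the alternate contigs is not given in the sources used here. The 0 of GSDMD is therefore a value of the tables and not a level of the gene.

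**Figure D5:**
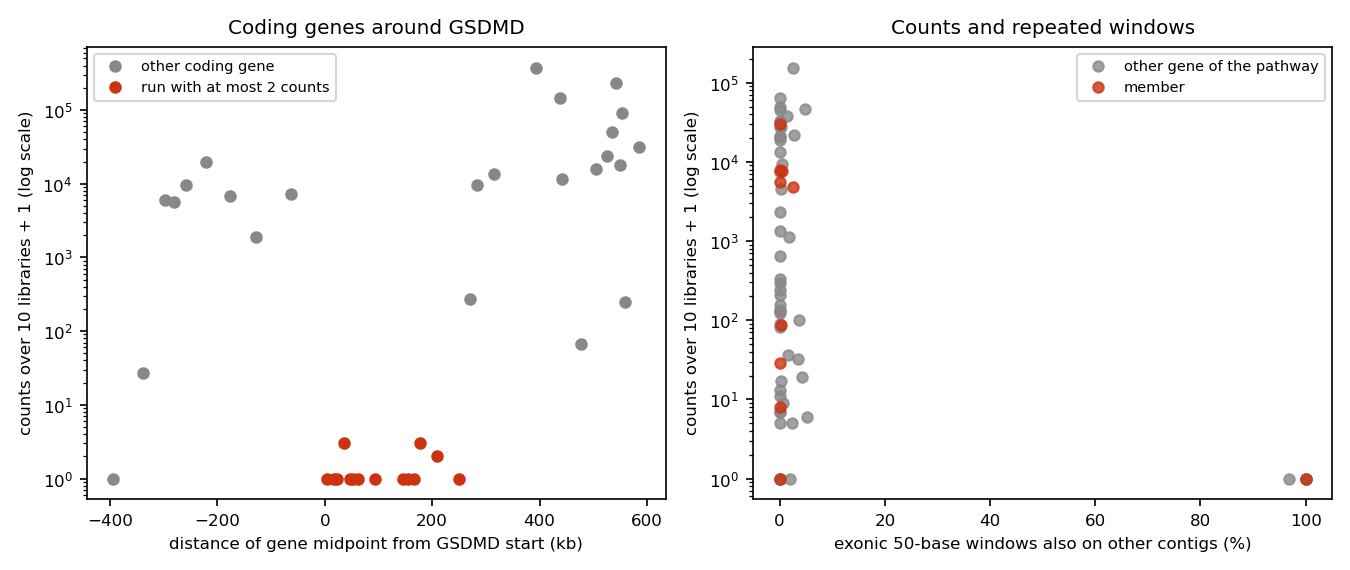
Left, counts over all 10 libraries plus 1 (log axis) of protein-coding genes against the distance of their midpoint from the GSDMD start in kb, where the run of 14 genes with at most 2 counts lies between GSDMD and 263 kb beyond its start. Right, the same counts against the percentage of exonic 50-base windows also found on other contigs for the members and the other genes of the list, where the 5 genes above 50% are all at 0.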

How the data were processed

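RNA was measured in 6 HCT116 and 4 DNMT1 KO libraries, grouped by their titles, with batches from the labels. Per the labels and the study's methods, polyadenylated RNA was made into stranded paired-end libraries (TruSeq). The authors checked reads with FastQC 0.11.4, trimmed them with Trim Galore 0.4.1, mapped them to hg38 with bowtie2, dropped alignments of low mapping quality and summed exonic reads for each gene in featureCounts, whose stated settings include no strand option. Bowtie2 does not align reads across splice junctions, so such reads are missed. The tables as deposited hold raw counts, without normalisation. A further 3 tables of HCT116 replicates have no sample in the list and were not used.

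Counts were tested with edgeR 4.0.16 under R 4.3.3, by a two-sided quasi-likelihood test with TMM scaling, filterByExpr defaults and a model of group alone, and p-values were adjusted over all 19279 genes that passed the filter. CPM used TMM-scaled totals, and RPKM also the deposited gene length. SE is the log2 fold change over the root of the F statistic, without sign. The rows of the members, of a list of 53 other pathway genes and of neighbours within 100 kb were taken from this fit. The rule for named genes was all members, called genes of the list (others of it as examples by role), called neighbours, and for each called member the 2 most correlated coding genes (mean over 1 CPM in its higher line). Values of some genes of the lists are not reported here. GBP2, IFI16, IL1RN, SERPINB1 and the neighbours OSBPL3 and PALS2 were named after their values were seen. Count ratios carry exact 95% intervals and floors are 3 counts over a group. Coordinates are those of GENCODE release 44 on hg38, where 58472 of 58884 identifiers matched. Exonic windows of 50 bases were looked up in all of hg38. The members, the lists and the tests were chosen with earlier results of these data known. The fits were checked on simulated counts. Alternatives were other scalings, filters, DESeq2 1.42.0, batch as a term, batches apart, halved counts, the replicate number as a block, and each library left out.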

Additional observations from a re-analysis of the deposited data

How the results depend on the processing

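The 5 tested members, and P2RX7, GZMB, IL1RN, SERPINB1, PRSS8 and TRIM72, kept the sign of their log2 fold change in each alternative that tested them. The calls on P2RX7, PRSS8 and TRIM72 held in all 20. IL18 was called lower in all 20 alternatives (log2 fold change -5.01 to -4.61) and CASP4 in all 19 in which it could be tested (-5.48 to -4.25), since a minimum of 10 counts in every library leaves it out and 1 member lower. GSDMB was called in none (-1.80 to -0.70).

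The number of members called higher was 1. It was 3 with no filter, which adds NLRP1 and NLRP3, 2 with DESeq2 and 2 with batch as a term. Batch 2 alone gave 0, and leaving out 1 library gave 0 to 2. The number called between HCT116 batches was 1. It was 2 with no filter, 0 without replicate 2, 7, 8 or 9 and 2 without replicate 1. The GSDME share of gasdermin RNA was 29.2 percentage points higher in DNMT1 KO, and 23.6 to 34.4 with 1 library left out. The exact permutation p was 0.0476 without HCT116 replicate 1 or 2 and 0.0714 to 0.143 without any other library. Batches 1 and 2 alone gave 22.2 points (exact permutation p = 0.3).

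With the replicate block on replicates 1 to 3, 0 members were called higher and 2 lower, and 2 list genes were called lower. GSDME then had a log2 fold change of 1.01 (edgeR adjusted p = 0.0509). Libraries with the same number deviated from their groups with correlations of 0.55 (replicate 1), -0.27 (replicate 2) and 0.37 (replicate 3). By the labels the same-numbered libraries of replicates 1 to 3 also share a batch. These few values cannot decide whether the numbers pair the samples.

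Of the list of 53 genes, 2 were called higher. With no filter there were 3, IFI16 being added, and 1 under the minimum of 10 counts in every library. None was called lower, against 1 with no filter, 2 with DESeq2, 3 with batch as a term, 2 with that term on batches 1 and 2, 1 in batch 2 alone and 0 to 1 with 1 library left out. Over all genes, 1431 were called higher and 1251 lower (53.4% of calls higher). With library totals alone these were 1878 and 956 (66.3%), and the median log2 fold change moved from -0.07 to 0.14. With at least 10 counts in every library these were 734 and 766, and in batch 2 alone 815 and 798. Causes of these shifts were not tested. Leaving libraries out for the NLRP3, PYCARD and IFI16 count ratios, and all alternatives for genes other than members, were chosen after seeing the data. The PYCARD ratio ranged from 3.53 to 6.67 and the NLRP3 ratio from 3.88 to 11.3.

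The depth limits NLRP3, PYCARD, CASP1 and AIM2, for which no test or a test on few counts was possible.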
